A study of Mus musculus with 18 samples.

Results

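Neutrophil lineage cells were examined among the hematopoietic progenitors (HPs) of developing and adult mouse bone marrow (BM). They were the HP cells that the deposited annotation places in a cluster whose code begins with Neu, and that held at least 1000 unique molecular identifiers (UMIs, each standing for 1 captured transcript molecule). This gave 693 neutrophils, out of 18716 HP cells with as many UMIs, 20982 HP cells in all and 56201 cells in the whole series. HPs had been sorted as Lineage-Kit+ BM cells from mice labelled C57B6/J, with no genetic change or treatment, at embryonic days 16.5 and 18.5 (E16.5 and E18.5), on the day of birth (P0) and in the adult, whose age the labels do not give. Each sort was measured by 10X single-cell RNA-Seq together with oligo-tagged antibodies (CITE-Seq). There were 2 E16.5 libraries and 1 library at each other stage, every library being a pool of several mice, and the study did not repeat these experiments. Fetal marrow came from the whole skeleton except the head, whereas adult marrow came from the legs, pelvis and spine and alone went through red cell lysis. The clusters carry the codes Neu1 (E16.5), Neu2 (E18.5 and P0) and Neu3 (adult).

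Neutrophils are made from myeloid progenitors in an order that can be read from their granules. Promyelocytes first make primary granule proteins such as myeloperoxidase and the serine proteases, myelocytes and metamyelocytes then make specific granule proteins such as lactoferrin, and late cells make metalloproteases and the receptors that steer them to infected tissue. Cells stop dividing at about the metamyelocyte step and leave the marrow when CXCR2 signals outweigh retention through CXCR4. The calcium-binding pair S100A8 and S100A9 (calprotectin) and, in mice, the stefin A cysteine protease inhibitors are abundant in the cytosol of these cells. The lineage stain is meant to remove mature cells and the Kit gate to keep immature ones.

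The members were unevenly spread over the libraries. The first E16.5 library held 2 neutrophils, the second E16.5 library 72, the E18.5 library 71, the P0 library 27 and the adult library 521. A further 1 P0 and 7 adult cells of these clusters fell below the minimum. Of the HP cells with at least 1000 UMIs, neutrophils made up 0.368% (95% Clopper-Pearson interval 0.0446 to 1.32%) and 1.52% (1.19 to 1.91%) in the E16.5 libraries. Their share was 2.82% (2.21 to 3.54%) in the E18.5 library, 0.454% (0.299 to 0.659%) in the P0 library and 10.5% (9.65 to 11.4%) in the adult library. The adult share thus lay above every perinatal share, and the P0 share below that of E18.5, beyond counting error. These intervals, and all others below, cover counting error only, since a stage other than E16.5 had no second library.

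Some libraries stood apart. Of the 560 cells of the first E16.5 library, 333 (59.5%) carried a cell barcode that another HP library held as well, against 21 cells of the second E16.5 library, 387 (E18.5), 240 (P0) and 708 (adult). Both neutrophils of the first E16.5 library were among them, with 1 each at E18.5 and in the adult. Whether RNA of another library entered the first E16.5 library was not tested. Where a gene has 2 E16.5 values, the first is that of this library, and the folds against E16.5 use the sum of both libraries. The E16.5 sums include its 2 cells, and without this library 693 genes were called higher and 1707 lower at E18.5 than at E16.5, against 689 and 1699 with it. Depth also differed by stage. Median UMIs per neutrophil were 57188 and 26080 for the E16.5 libraries, 4366 in E18.5 cells, 3034 in P0 cells and 10325 in adult cells. The median of the other HP cells was 23662 and 18782 UMIs at E16.5, 23672 (E18.5), 20080.5 (P0) and 8743 (adult), so E18.5 and P0 neutrophils held fewer UMIs than their neighbours and the others more. The median mitochondrial share of neutrophil UMIs was 3.51% and 2.85% at E16.5, 0.496% in E18.5 cells, 0.619% in P0 cells and 1.26% in adult cells.

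The label was checked against Camp, Ngp, Lcn2 and S100a8. These 4 markers took 4.17% and 2.31% of the neutrophil UMIs in the E16.5 libraries, 13.7% (E18.5), 13.6% (P0) and 21.6% (adult). In the first E16.5 library 4746 of the 4772 marker UMIs lay in 1 of the 2 cells, whereas the other, of 62162 UMIs, held 26 of S100a8 and none of Camp. The barcodes of both cells occur in 3 other libraries, so the first-library values of the marker, specific granule and S100 genes rest mostly on 1 such cell, and the E16.5 label was checked mainly on the second library. Every E18.5, P0 and adult cell held a marker UMI, but 3 of the 72 cells of the second E16.5 library held none. Kit transcripts, which the gate would favour, stood at 61.2 and 62.0 CPM (UMIs of a gene scaled to a common total per library) at E16.5, 4.91 in E18.5 cells, 43.8 in P0 cells and 55.7 in adult cells. Erythroid markers were nearly absent before birth (16 UMIs of 8 genes at E16.5, 1 at E18.5). Dendritic cell markers had 10 UMIs in 6 cells at E16.5, 13 in 12 cells at E18.5 and 1 at P0. None of these were of Cd209a or Siglech. In the second E16.5 library, the myeloid progenitor markers Mpo, Elane, Prtn3, Ctsg and Ms4a3 had 64115 UMIs in 71 of 72 cells. The 4 neutrophil markers had 46968 in 69 cells, so these cells held more progenitor than neutrophil marker UMIs. The 6 mast cell markers came next, with 6506 UMIs in 71 of 72 cells, and all 6 genes were detected. T cell markers followed with 903 UMIs in 29 cells, then B cell markers with 247 in 48 cells and monocyte markers with 219 in 45 cells, and the part of such RNA in the results was not tested. With every cell thinned to 1000 UMIs, 18.1% of these neutrophils and 17.1% of the B cells of that library had a UMI of the mast cell chymase Cma1. The mast cell UMIs were uneven among the neutrophils, with 1409 in 1 cell. Equal shares of cells therefore do not show that the level is background.

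For comparisons between stages, the UMIs of all neutrophils of a stage were summed and expressed as CPM. A gene was compared when it had at least 50 CPM and 20 UMIs in the higher stage, and called when the ratio passed 2-fold, with 3 UMIs as the lowest count used for the other stage. With a single library at most stages these calls have no replicate check and no p-value. Against E16.5, 20.7% of 3329 genes were called higher and 51% lower at E18.5, with a median log2 ratio of -1.06 over all genes. Without the second E16.5 library, which leaves 2 cells at that stage, 622 were higher and 557 lower, with a median of 0.42. Between P0 and E18.5, 1.78% of 1351 genes were called higher and 10.8% lower at P0, with a median of -0.30. Of those 170 calls, 86 had a counting interval that included 1. The minimum of 20 UMIs asks for a higher CPM at P0 (91343 UMIs in all) than at E18.5 (407030). A gene higher at P0 was thus harder to call, in the comparison with the adult as well. In the adult against P0, 36.5% of 1620 genes were called higher and 12.7% lower, with a median of 0.75. In the adult against E16.5, 8.2% of 2988 genes were called higher and 42.9% lower, with a median of -0.81 (without the second E16.5 library 193 and 362 genes, with a median of -0.18). The E18.5 and P0 neutrophils thus differed in the fewest of the genes compared (12.6%), and the E16.5 and E18.5 cells in the most (71.7%). The gap between the 12.6% and the 49.2% of the adult against P0 depends on depth and filter. The values were 13.0% and 17.5% with every cell thinned to 1000 UMIs, and 12.2% and 13.6% with the filter of 20 UMIs alone. The lowest count of 3 UMIs also stands for a higher CPM at P0, so weak genes were harder to call lower there. The split depends on the scaling: with TMM factors, which centre on the bulk of genes, higher calls went from 28.9% to 46.8% of the calls at E18.5 against E16.5, from 14.1% to 1.20% at P0 against E18.5, from 74.2% to 83.8% in the adult against P0 and from 16.0% to 48.3% in the adult against E16.5. The counts of the gene groups below are therefore read against these shares. Comparisons with a stage in common share its cells.

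**Figure D1:**
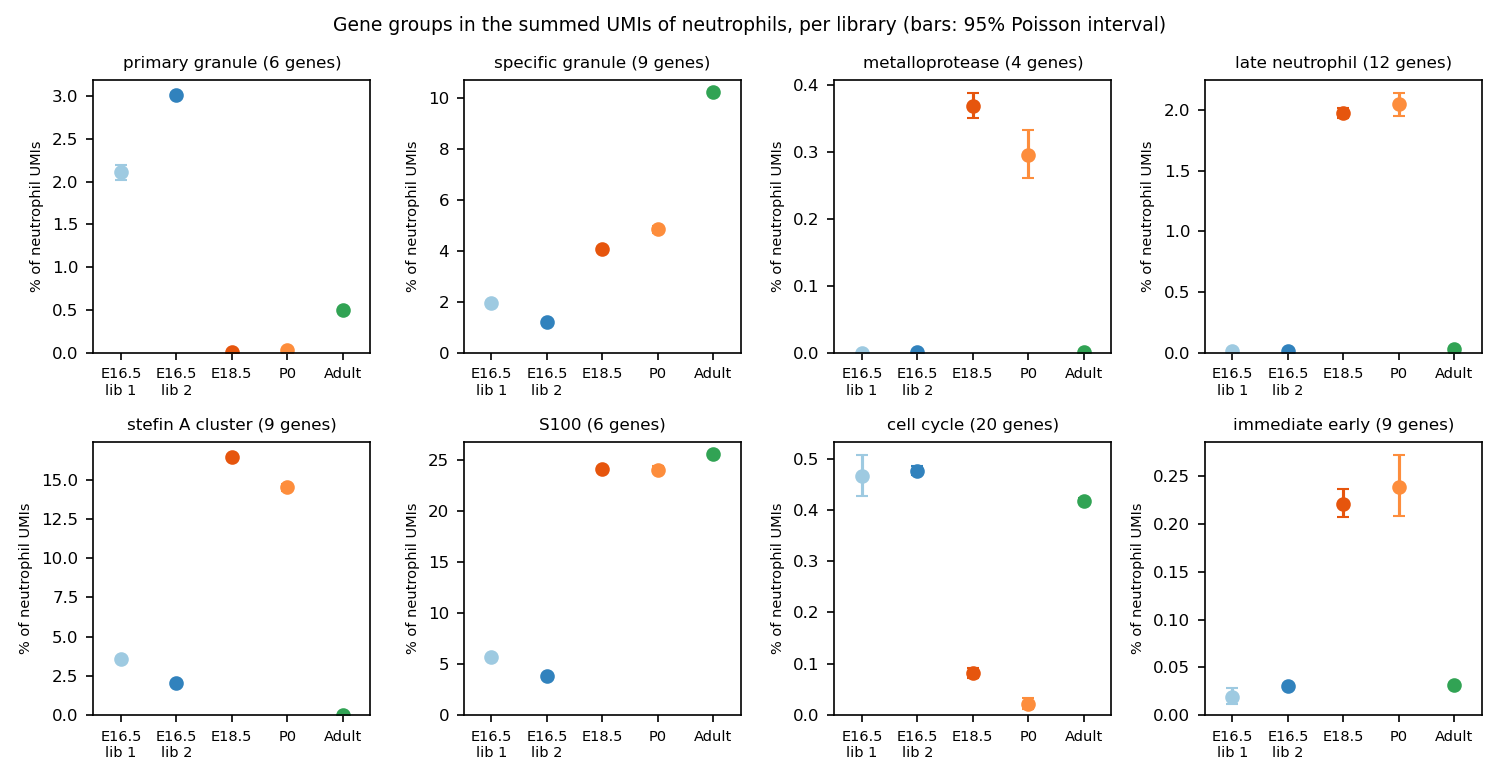
Share of all neutrophil UMIs (%, linear axis from 0) taken by 8 gene groups in each library; points are sums over the neutrophils of a library, bars are 95% Poisson intervals, and the first E16.5 library is 2 cells. Primary granule genes were highest at E16.5, late genes at E18.5 and P0, specific granule genes in the adult, and the stefin A cluster at E18.5 (16.4%, against 0.00786% in the adult).

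Primary granule genes set the E16.5 cells apart. The 6 genes took 2.11% and 3.01% of neutrophil UMIs in the E16.5 libraries, 0.0142% (E18.5), 0.0296% (P0) and 0.504% (adult). Mpo, which encodes myeloperoxidase, stood at 2903 and 6248 CPM at E16.5, 19.7 in E18.5 cells, 43.8 in P0 cells and 831 in adult cells. Elane, the neutrophil elastase gene, stood at 5552 and 7828 CPM at E16.5, 4.91 (E18.5), 76.6 (P0) and 1732 (adult). Both E16.5 libraries were above all later libraries for these genes, and the adult stood between them and the E18.5 and P0 libraries. Prtn3 (proteinase 3) was 196-fold lower at E18.5 than at E16.5 (counting interval 132 to 306) and 31.9-fold higher in the adult than at P0 (14.6 to 86.8). Ctsg (cathepsin G) was 194-fold (98.3 to 449) lower at E18.5, and 4.28-fold (1.96 to 11.7) higher in the adult than at P0. Ctsc, the protease that activates the serine proteases among them, differed least between E16.5 and E18.5. It stood at 17.5 and 63.9 CPM in the E16.5 libraries, 29.5 in E18.5 cells, 32.8 in P0 cells and 4.82 in adult cells. In the adult it was 12.8-fold (8.43 to 19.9) lower than at E16.5, close to Ctsg (13.5-fold). All 6 genes were called lower at E18.5 than at E16.5 (median log2 ratio -7.61), of which Ctsc did not reach the level for comparison with TMM factors. All 5 compared were called higher in the adult than at P0 (median 4.25), or 3 with every cell thinned to 1000 UMIs, and all 6 were lower in the adult than at E16.5 (median -2.67). None reached the level for comparison between E18.5 and P0. In the adult library 26.1% of neutrophils and 16.4% of B cells had a Mpo UMI at 1000 UMIs per cell (median depths before thinning 10325 and 2229.5). In contrast, 90.3% of neutrophils and 1.10% of B cells did so in the second E16.5 library. Whether the adult B cell share is a background level for the deeper neutrophils was not tested.

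Mpo, Elane and Prtn3 were far lower at E18.5 than at E16.5, whereas Ctsc was 2.08-fold lower. To set these genes side by side, the bases before their start sites are shown for the 4 of 5 matched primary granule promoters that hold the letters GAGGAAGT, which the myeloid factor PU.1 is known to bind. RefSeq promoters (GRCm38.p6) were searched over 250 bases before the start, on both strands, and 2.44% of all 32851 promoters hold these letters, which overlap no other motif searched here. The sequences read 5′ to 3′ on the gene's strand, with the letters, or their reverse complement for Ctsc, in capitals.
Mpo, chr11:87793549-87793578 (+): gtggagagagaGAGGAAGTtgcctttgtcc
Elane, chr10:79886216-79886245 (+): cgtgtcccaggGAGGAAGTagggctgtggc
Prtn3, chr10:79879561-79879590 (+): caaactggaagGAGGAAGTgggacccacag
Ctsc, chr7:88277923-88277952 (+): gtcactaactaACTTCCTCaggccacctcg
None of 8 stefin A cluster promoters held the same letters, and 1 of 8 specific granule promoters did (Olfm4). Within 100 bases before the start, 2 of 5 primary granule promoters and 1.15% of all hold these letters. Ctsg (194-fold) and Prss57 (42.9-fold) were also lower at E18.5 than at E16.5 and are not among the 4 shown. A match describes the sequence and is not a measured binding site. Its relation to the levels of these genes was not tested.

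The sum of the specific granule genes was highest in the adult, mostly through Camp, whereas 4 of the 9 genes were lower there than at P0. The 9 genes took 1.97% and 1.20% of neutrophil UMIs at E16.5, 4.09% in E18.5 cells, 4.85% in P0 cells and 10.2% in adult cells. Camp, which encodes the antimicrobial peptide cathelicidin, stood at 10597 and 7030.2 CPM at E16.5, 9827 (E18.5), 11156 (P0) and 57417 (adult). Only the adult library lay apart, 5.15-fold (4.84 to 5.48) above P0. Between E18.5 and E16.5 the direction of Camp depended on the scaling. It was 1.36-fold higher at E18.5, with a log2 ratio of 1.05 under TMM factors and -1.26 with every cell thinned. Ltf, the lactoferrin gene, stood at 96.2 and 118 CPM at E16.5, 3039 in E18.5 cells, 3952 in P0 cells and 5012 in adult cells. Here E16.5 lay apart, with E18.5 26.1-fold (22.8 to 30) higher. Ngp (neutrophilic granule protein) was 9.43-fold and the iron-scavenging lipocalin Lcn2 8.69-fold higher at E18.5 than at E16.5, while Lcn2 was 1.10-fold (1.02 to 1.18) lower in the adult than at P0. Chil3, a chitinase-like protein, stood at 0 and 88.5 CPM at E16.5, 528 (E18.5), 1347 (P0) and 4569 (adult), and it was the gene of this group that differed between E18.5 and P0 (2.55-fold, 2.03 to 3.20), a call that was lost with TMM factors (log2 ratio 0.92).

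Olfm4 and the haptoglobin gene Hp went against the group. Olfm4, the olfactomedin of a subset of mature neutrophils, stood at 743 and 499 CPM at E16.5, 2707 in E18.5 cells, 3273 in P0 cells and 59.7 in adult cells, 54.8-fold (46.8 to 64.2) below P0. Hp was 3.72-fold and Pglyrp1, a peptidoglycan recognition protein, 1.77-fold (1.56 to 2.00) lower in the adult than at P0, the latter within the threshold. Over the group, 8 of 9 genes were called higher at E18.5 than at E16.5 (median log2 ratio 2.66). Over the alternatives of processing this was 6 to 9 genes, with up to 1 called lower. At P0 1 of 9 was higher than at E18.5 (median 0.27). In the adult 2 were higher and 2 lower than at P0 (median 0.34), or 3 and 2 with TMM factors, 5 and 3 when thinned. Against E16.5, 6 were higher and 1 lower in the adult (median 2.99).

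**Figure D2:**
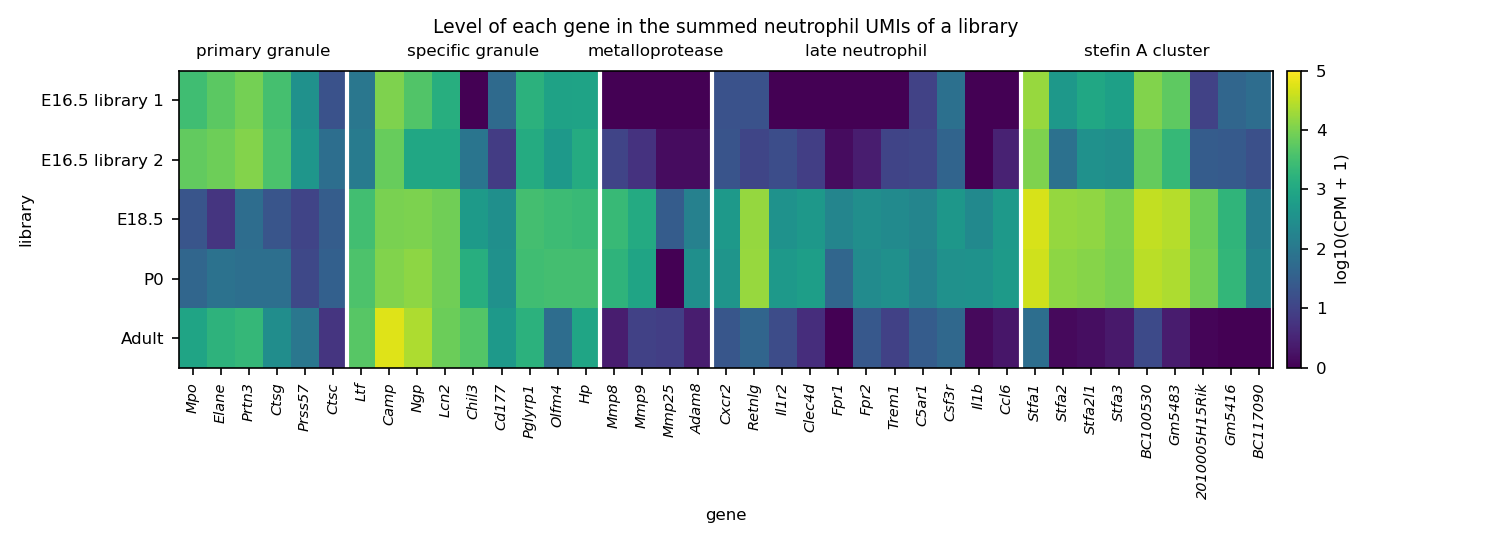
Heat map of log10(CPM + 1) for genes of 5 groups (columns) in the summed neutrophil UMIs of each library (rows). The bright primary granule block belongs to E16.5, the metalloprotease and late blocks to E18.5 and P0, and the stefin A block is dark in the adult row.

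Metalloprotease and late genes marked the E18.5 and P0 cells. Mmp8, the neutrophil collagenase stored in specific granules, stood at 0 and 9.84 CPM at E16.5, 2388 (E18.5), 1817 (P0) and 1.55 (adult). Mmp9, the gelatinase B gene, was 267-fold (140 to 588) higher at E18.5 than at E16.5 and 103-fold (70.6 to 151) lower in the adult than at P0. All 3 metalloprotease genes compared were called higher at E18.5 than at E16.5 (median log2 ratio 8.00), 0 of 3 differed at P0, and all 3 were lower in the adult than at P0 (median -7.63). The 12 late genes took 0.0140% and 0.0171% of neutrophil UMIs at E16.5, 1.97% in E18.5 cells, 2.04% in P0 cells and 0.0270% in adult cells. Retnlg, a resistin-like secreted protein, accounted for most of this at E18.5 and P0. It stood at 17.5 and 10.3 CPM at E16.5, 15915 (E18.5), 16553 (P0) and 41.8 (adult). The chemokine receptor gene Cxcr2 stood at 17.5 and 18.7 CPM at E16.5, 486 in E18.5 cells, 405 in P0 cells and 20.5 in adult cells. Il1b, the interleukin 1 beta gene, had no UMI in either E16.5 library, 238 CPM in E18.5 cells, 350.3 in P0 cells and 0.344 in adult cells. The E18.5 and P0 libraries stood together above the others for each of these genes. All 12 late genes were called higher at E18.5 than at E16.5 (median log2 ratio 5.40). Only the formyl peptide receptor Fpr1 differed by the fold used here between P0 and E18.5, and it was 4.21-fold (1.58 to 15.8) lower at P0. All 10 late genes compared were lower in the adult than at P0 (median -5.26). Over the alternatives 3 to 10 were called lower, with medians of -6.66 to -4.91.

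Single cells were then compared. With every cell thinned to 1000 UMIs, 72 of 74 E16.5 neutrophils (97.3%, 90.6 to 99.7%) held more primary granule UMIs than metalloprotease and late UMIs together. This was so in 1 of 71 cells at E18.5 (1.41%, 0.0357 to 7.60%) and in 0 of 27 at P0, which allows up to 12.8%. In the adult, 276 of 521 cells (53.0%, 48.6 to 57.3%) held more primary granule UMIs, 69 held more late UMIs and 176 held equal numbers, of which 144 had none of either. Most of the 276 held few such UMIs, 159 of them 1 to 4 and 117 at least 5. In adult B cells 57.0% of 414 held more primary granule UMIs as well, so the adult share of neutrophils is not above that of B cells. The B cells were shallower before thinning (median 2229.5 against 10325 UMIs), and whether their share is a background level for neutrophils was not tested. A difference was seen at 5 UMIs or more, which 22.5% of adult neutrophils and 3.62% of adult B cells held together with fewer late UMIs. In the other stages the B cell share with more primary granule UMIs was 8.61% (E16.5), 10.5% (E18.5) and 12.4% (P0). The median adult cell held 11.1% of its UMIs in specific granule genes, 0.1% in primary granule genes and 0% in late genes. The adult share depends on depth and was 72.0% when cells were not thinned.

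**Figure D3:**
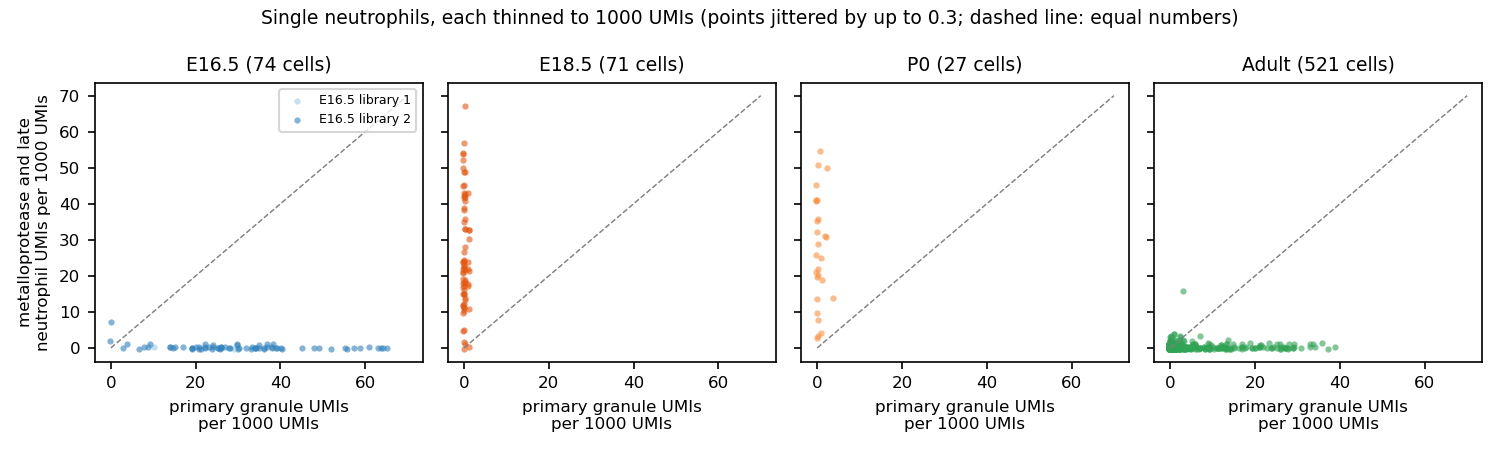
Each point is 1 neutrophil thinned to 1000 UMIs, with primary granule UMIs on the horizontal axis and metalloprotease plus late UMIs on the vertical axis, 1 panel per stage; points are jittered by up to 0.3 and the dashed line marks equal numbers. E16.5 cells lie along the horizontal axis, E18.5 and P0 cells along the vertical axis, and adult cells near the origin and along the horizontal axis.

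The border of the clusters bears on this difference. At E18.5, 8 cells outside the neutrophil cluster reached the 5th percentile of the neutrophils' marker share, all in the myeloid progenitor cluster MyP2, and at P0 22 cells did, all in MyP3. All 8 and 19 of the 22 held more primary granule than late UMIs. In the adult 9 cells reached it, of which 5 were of the myeloid progenitor cluster MyP5, all with more primary granule UMIs. Counting such progenitor cells as neutrophils gave 9 of 79 cells (11.4%) with more primary granule UMIs at E18.5, 19 of 49 (38.8%) at P0 and 281 of 526 (53.4%) in the adult. Cells with both neutrophil markers and primary granule genes were thus present at E18.5 and P0, but under another cluster name. At E16.5 no cluster has the myeloid progenitor code, and the one monocyte code is that of a mixed cluster, Mono/Mast (141 cells of the second library). The marker level there was too low to draw such a border, since 117 other cells reached it, 23 of them in a T cell cluster and 22 in a mast cell cluster.

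Within the adult cluster, the specific granule genes ran opposite to the primary granule level. Cells with 0, 1 to 4, 5 to 19 and at least 20 primary granule UMIs per 1000 numbered 206, 198, 79 and 38, where adult B cells held a median of 1. Along this order Ltf stood at 7299, 5749.8, 1315 and 238 CPM, and Lcn2 at 10404, 8484, 3100.4 and 635 CPM. Ngp stood at 30687, 28762, 14759 and 5051 CPM and Camp at 63345, 62071, 51008 and 27171 CPM. The cells richest in primary granule UMIs were thus the lowest for all of these genes. The cell cycle genes stayed at 0.407%, 0.426%, 0.435% and 0.401% of UMIs. Across the 521 cells the thinned primary and specific granule shares had a Spearman rho of -0.52, against -0.46 over the 72 cells of the second E16.5 library, where both shares come from the same fixed number of UMIs. In the E18.5 and P0 clusters, where few cells held any primary granule UMI, rho was -0.15 over 71 cells and -0.03 over 27.

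The stefin A cluster had the largest median difference of all groups between P0 and adult. Each of these stages is 1 pool of mice with the same strain label, so a difference between stages and one between the pools, the source of the mice included, cannot be told apart. Stefins of this family are cytosolic inhibitors of cysteine proteases such as the cathepsins, and the 9 genes of the group lie within 299 kb of chromosome 16 (36156811 to 36455392, GRCm38.p6). In the files 4 carry a Stfa name and the others are BC100530, Gm5483, 2010005H15Rik, Gm5416 and BC117090. Between 0% and 16.4% of the 90-base stretches of a member's transcripts also occur in another member, so reads may have been split among them and values of single members are uncertain, whereas the sum is less so. The group took 3.59% and 2.03% of neutrophil UMIs at E16.5, 16.4% (E18.5), 14.5% (P0) and 0.00786% (adult). In the first E16.5 library 4103 of its 4104 UMIs lay in 1 cell.

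The longest run of bases that the promoters of the 4 genes with a Stfa name share before the start is shown in capitals, 5′ to 3′ on the gene's strand. Those 4 hold it by the way it was chosen. Of the 8 matched promoters of the group, 6 hold this run of 13 bases. It begins 32 to 36 bases before the start in the RefSeq promoter table, which for Stfa1 and Stfa2 lies inside the annotated gene, includes the letters TTTAAA, and was found in 8 of 32851 RefSeq promoters (0.0244%), all of them in this stretch of chromosome 16. The other 2 are Cstdc3 and Gm7260, which are not in the group.
Stfa1, chr16:36277107-36277135 (+): tttcggatACCTTTAAAACCCtgagtctc
Stfa2, chr16:36408375-36408403 (-): ttacagaaACCTTTAAAACCCtgagtctc
Stfa2l1, chr16:36156767-36156795 (+): ttacagaaACCTTTAAAACCCtgagtctc
Stfa3, chr16:36455406-36455434 (-): tacagataACCTTTAAAACCCcgagtctc
The letters TTTAAA occur in 7 of the 8 promoters and in 12.1% of all. The letters TTGCNNAA, bound by C/EBP factors, occur in 3 of the 8 stefin promoters, in 3 of 8 specific granule promoters (Ltf, Ngp and Lcn2), in 0 of 5 primary granule promoters and in 9.56% of all, on either strand over 250 bases.

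Stfa1 stood at 16647 and 10684 CPM at E16.5, 50679 in E18.5 cells, 44295 in P0 cells and 62.6 in adult cells. Stfa2 stood at 463 and 71.3 CPM at E16.5, 16036 (E18.5), 13871 (P0) and 0.344 (adult). BC100530 stood at 11244 and 6650.1 CPM at E16.5, 34695 in E18.5 cells, 30161 in P0 cells and 12.4 in adult cells. For these 3 genes the E18.5 library was highest, followed by P0, and the adult library was lowest. The step from E16.5 to E18.5 was uneven among the members: Stfa1 was 4.61-fold (4.52 to 4.69) and BC100530 5.03-fold (4.92 to 5.15) higher at E18.5, whereas Stfa2 was 174-fold (151 to 201) and 2010005H15Rik 286-fold (220.0 to 380.1) higher. All 9 genes were called higher at E18.5 (median log2 ratio 5.05), all 8 compared at P0 were within the threshold (median -0.20), all 8 were lower in the adult than at P0 (median -13.50) and all 6 compared were lower in the adult than at E16.5 (median -8.57). Stfa1 was 707-fold (635 to 789) and BC100530 2435-fold (1927 to 3121) lower in the adult than at P0. Gm5416, with no adult UMI, was 3945-fold lower with 3 UMIs as the lowest count, and its counting interval began at 3177-fold.

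The few adult stefin UMIs came from few cells. They numbered 457 over 521 cells, and 67 cells (12.9%) held any. A single cell held 132, and another of 1070 UMIs held 64. The barcode of the latter is also that of an E16.5 neutrophil of the first library with 4103 stefin UMIs, and is found at E18.5 and P0 as well. Without it the adult share was 0.00676%. In the E16.5, E18.5 and P0 libraries 71 of 72, 71 of 71 and 27 of 27 neutrophils held a stefin UMI. At 1000 UMIs per cell the stefin share ranged from 0% to 10.5% with a median of 1.7% in the second E16.5 library, from 0.9% to 25.7% with a median of 15.9% at E18.5, and from 3.1% to 21% with a median of 13.8% at P0, while its median was 0 in the adult.

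The difference was also seen at a matched primary granule level. Among cells with at least 20 primary granule UMIs per 1000, the group took 1.69% of UMIs in 57 E16.5 cells and 0.000198% in 38 adult cells. Among cells with 5 to 19, it took 3.08% in 13 E16.5 cells and 0.00759% in 79 adult cells. In the adult cells with 5 to 19, 64 of the 84 stefin UMIs lay in 1 cell with a barcode that other libraries share, and in the E16.5 cells 4103 of 12603 did. Without these cells the shares were 2.38% in 12 E16.5 cells and 0.00181% in 78 adult cells. The value of the 38 adult cells rests on 1 UMI. The E18.5 and P0 clusters held no cell at these levels. It was also seen in progenitors outside the clusters. In myeloid progenitor clusters the group took 0.242% of UMIs (E18.5), 0.442% (P0) and 4.7e-05% (adult), and the border cells described above had a median of 7.5% in the E18.5 library, 9.8% in the P0 library and 0% in the adult library. In the adult library 81.6% of B cells had a UMI of S100a8 and 47.3% of Camp at 1000 UMIs per cell, against 0.242% for Stfa1. Whether these UMIs were free RNA from neutrophils was not tested. At E18.5 0% and at P0 2.84% of B cells had a Stfa1 UMI, against 100% of neutrophils at both stages.

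**Figure D4:**
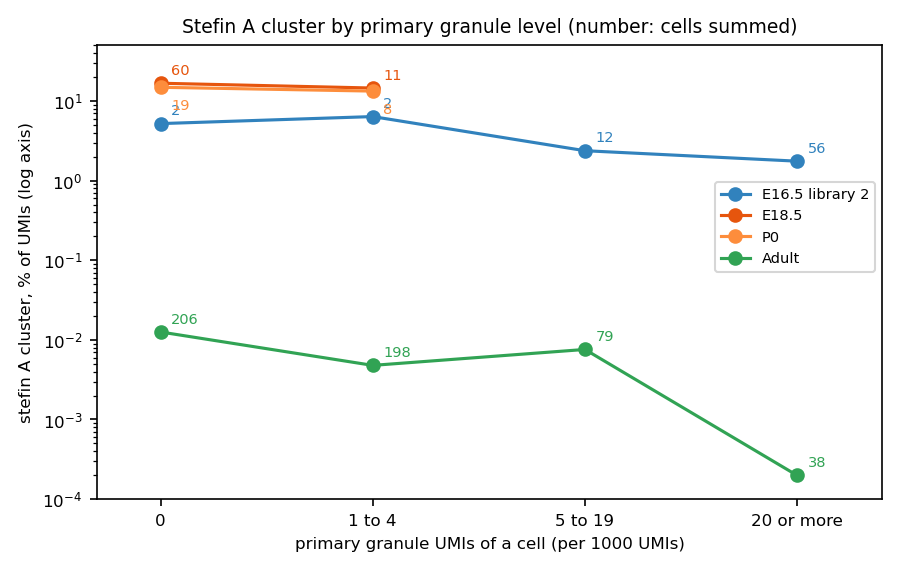
Stefin A cluster share of UMIs (%, log axis) in neutrophils grouped by their primary granule UMIs per 1000; the number at each point is the number of cells summed, and the first E16.5 library, with 2 cells, is left out. At every level that both stages hold, E16.5 cells lie above 1% and adult cells below 0.1%.

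Calprotectin genes were high from E18.5 on. S100a8 and S100a9 together took 5.59% and 3.77% of neutrophil UMIs at E16.5, 23.2% in E18.5 cells, 23.1% in P0 cells and 25.5% in adult cells. S100a9 was within 1.04-fold between E18.5 and P0 and within 1.00-fold between P0 and adult. In contrast, S100a6, which encodes calcyclin, had 0 and 2.95 CPM at E16.5, 3924 (E18.5), 4664 (P0) and 183 (adult). S100a11 was likewise highest at E18.5 and P0, at 848 and 599.9 CPM at E16.5, 5447 in E18.5 cells, 4894 in P0 cells and 1014 in adult cells. Of the 4 genes compared, all were called higher at E18.5 than at E16.5 (median log2 ratio 3.01), and S100a6 and S100a11 were lower in the adult than at P0.

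Genes of the respiratory burst differed less. The NADPH oxidase turns oxygen into superoxide, and its 6 genes took 0.293% and 0.352% of neutrophil UMIs at E16.5, 0.482% (E18.5), 0.464% (P0) and 0.431% (adult). Cybb, the catalytic subunit, stood at 87.4 and 129.8 CPM at E16.5, 641 in E18.5 cells, 624 in P0 cells and 1035 in adult cells, and was 5.03-fold (4.23 to 5.98) higher at E18.5 than at E16.5. Its membrane partner Cyba was within the threshold in every comparison. Ncf1, a cytosolic subunit, was called higher at E18.5 than at E16.5 as well (2.11-fold, 1.80 to 2.48), but both Cybb and Ncf1 lost this call with every cell thinned to 1000 UMIs (log2 ratios 0.84 and 0.85). The median log2 ratio of the group was 0.58 in that comparison, 0 of 6 genes differed between P0 and E18.5, and Cybb was called higher in the adult than at E16.5 (8.11-fold, 7.19 to 9.19). Of the pentose phosphate genes, which supply NADPH, 1 was called higher (G6pdx) and 4 lower at E18.5 than at E16.5 (median -1.01, close to that of all genes), 0 of 5 differed at P0, and 2 were higher and 1 lower in the adult than at P0. With TMM factors these counts were 2 higher and 3 lower at E18.5, 1 lower at P0 (G6pdx), and 3 higher and 0 lower in the adult.

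In the leukotriene B4 pathway, which makes a lipid attractant of neutrophils, the members parted. Alox5ap, the 5-lipoxygenase activating protein, stood at 393 and 457 CPM at E16.5, 1914 (E18.5), 1916 (P0) and 451 (adult). Lta4h, the hydrolase of the final step, went the other way, at 349.7 and 282 CPM at E16.5, 73.7 in E18.5 cells, 153 in P0 cells and 476 in adult cells. The receptor gene Ltb4r1 was within the threshold in all comparisons. Over all genes, 20.7% were called higher and 51% lower at E18.5 than at E16.5, and 36.5% and 12.7% in the adult against P0. Of the 4 genes, 2 were called higher (Alox5ap and Alox5) and 1 lower (Lta4h) at E18.5 than at E16.5, 0 of 3 compared differed at P0 (1 lower with TMM factors, Alox5), and 1 was higher (Lta4h) and 1 lower (Alox5ap) in the adult than at P0.

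Myeloid transcription factors differed in part between the stages. Gfi1, a repressor needed for granulocyte formation, stood at 114 and 119.99 CPM at E16.5, 4.91 (E18.5), 10.9 (P0) and 29.6 (adult). Cebpe, which drives specific granule genes, stood at 577 and 562 CPM at E16.5, 324 in E18.5 cells, 153 in P0 cells and 404 in adult cells. Mxd1, a MYC antagonist of terminal differentiation, had 26.2 and 13.8 CPM at E16.5, 568 (E18.5), 635 (P0) and 81.7 (adult). Gfi1 was thus lowest (2 UMIs at E18.5 and 1 at P0) where Mxd1 was highest. At P0 Cebpb was 2.49-fold (1.94 to 3.18) higher and Cebpe 2.12-fold (1.22 to 3.98) lower than at E18.5, and these were the only members called there. With TMM factors the call of Cebpb was lost (log2 ratio 0.89). Of the 8 compared at E18.5 against E16.5, 2 were higher (Klf6 and Mxd1) and 1 lower (Gfi1), with a median log2 ratio of 0.29. Over all genes 20.7% were higher and 51% lower there. In the adult against P0, 1 of 7 was higher (Cebpe) and 4 lower (Cebpb, Spi1, Klf6 and Mxd1), beside 36.5% and 12.7% of all genes. In the adult against E16.5, 2 of 8 were higher (Klf6 and Mxd1) and 3 lower (Cebpb, Gfi1 and Spi1), beside 8.2% and 42.9%. With TMM factors Cebpb and Spi1 lost the call (log2 ratios -0.74 and -0.58), and with every cell thinned to 1000 UMIs Klf6 and Mxd1 did (0.55 and 0.88).

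Cytokine receptor and adhesion genes followed the late genes. Csf3r, the receptor of G-CSF, stood at 69.9 and 39.8 CPM at E16.5, 432 in E18.5 cells, 339 in P0 cells and 47.0 in adult cells. Of 6 receptor genes compared, 4 were called higher at E18.5 than at E16.5 (Csf3r, Csf2rb, Csf1r and Il6ra) and Kit lower, on 2 UMIs. With TMM factors Kit did not reach the level for comparison. Csf2rb was called lower at P0 than at E18.5 on 6 UMIs, with an interval that included 1, and Csf3r lower in the adult than at P0. Itgam, which encodes CD11b, stood at 43.7 and 55.6 CPM at E16.5, 324 (E18.5), 296 (P0) and 209 (adult). The retention receptor Cxcr4 was 2.11-fold (1.37 to 3.18) higher at E18.5 than at E16.5, where Cxcr2 was 26.1-fold (18.5 to 37.7) higher, and the integrin gene Itga4 was within the threshold. Of the 9 retention and egress genes 8 were called higher at E18.5 (median log2 ratio 2.56), 0 of 7 differed at P0 (1 of 8 lower with TMM factors, Selplg), and Cxcr2 and Cd44 were among those lower in the adult than at P0.

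Cell cycle genes were lowest in the E18.5 and P0 cells. The 20 genes took 0.466% and 0.477% of neutrophil UMIs at E16.5, 0.0816% in E18.5 cells, 0.0208% in P0 cells and 0.418% in adult cells. Mki67, the gene of the Ki-67 proliferation marker, stood at 577 and 206 CPM at E16.5, 81.1 (E18.5), 10.9 (P0) and 618 (adult). Top2a, a topoisomerase of dividing cells, stood at 612 and 268.5 CPM at E16.5, 111 in E18.5 cells, 10.9 in P0 cells and 547 in adult cells. All 20 were called lower at E18.5 than at E16.5 (median log2 ratio -3.21), or 18 with TMM factors. Mki67 and Top2a lost the call there (log2 ratios -0.87 and -0.77). Over all alternatives 6 to 20 were called lower at E18.5, with medians of -3.94 to -2.57. At P0 4 of 7 were lower than at E18.5, or all 7 with TMM factors and 0 to 7 over all alternatives. In the adult, 16 of 19 were higher than at P0 (median 1.74), 19 with TMM factors and 6, with a median of 0.00, when every cell was thinned to 1000 UMIs. Against E16.5, 14 of 20 were within the threshold in the adult (median -0.61), 1 was higher and 5 lower, or 2 and 0 with TMM factors. Over the other HP cells the group took between 0.263% and 0.512% in all 5 libraries. Of the fetal growth genes only Igf2bp3, an RNA-binding protein of fetal cells, reached the level for comparison, at 96.2 and 107 CPM at E16.5, 27.0 (E18.5), 0 (P0) and 10.3 (adult).

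Interferon-responsive and immediate early genes were highest at E18.5 and P0. Ifitm3, a membrane protein that limits virus entry, stood at 0 and 60.0 CPM at E16.5, 1056 in E18.5 cells, 1598 in P0 cells and 179.97 in adult cells. Of 8 interferon genes compared, 7 were called higher and 1 lower (Bst2, not with TMM factors) at E18.5 than at E16.5 (median log2 ratio 4.32), and both of those compared were lower in the adult than at P0. Ifi27l2a was 3.86-fold (2.86 to 5.22) higher at P0 than at E18.5. In the other HP cells the 12 genes took 0.115% and 0.124% of UMIs at E16.5, 0.197% (E18.5), 0.128% (P0) and 0.0577% (adult). Fos stood at 0 and 16.2 CPM at E16.5, 256 (E18.5), 394 (P0) and 15.8 (adult). Of the 8 immediate early genes compared, 7 were called higher at E18.5 than at E16.5 (median 3.88). At P0 1 was lower than at E18.5 (Egr1). All 7 compared were lower in the adult than at P0 (median -3.25), or 6 with TMM factors, where Ier2 lost the call (log2 ratio -0.72). Over the alternatives 0 to 7 were lower there. The median stayed between -3.44 and -2.90 where any gene reached the level for comparison. Immediate early genes respond to cell handling, and their share in the other HP cells was 0.0631% and 0.0794% at E16.5, 0.147% in E18.5 cells, 0.109% in P0 cells and 0.0444% in adult cells, which was likewise highest at E18.5 and P0. The part of handling was not tested. Of the MHC class I genes, 1 of 4 was called higher at E18.5 than at E16.5 (H2-D1, and B2m as well with TMM factors), beside 20.7% of all genes. In the adult 1 of 3 was lower than at P0, beside 12.7% of all genes. No MHC class II gene reached the level for comparison.

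The genes with the largest ratios repeated these groups and added others. Higher at E18.5 than at E16.5 were also Asprv1, an aspartic protease, and Slfn1, a schlafen family member, at 1015 and 543 CPM against 0.931 and 0.466 in the sum of both E16.5 libraries, and among the lower were Ms4a3 (76.6-fold), a marker of granulocyte and monocyte progenitors, and the secretory pathway genes Pdia6 (55.3-fold) and Sdf2l1 (372 against 4.91 CPM). Thbs1, the thrombospondin 1 gene, stood at 35.0 and 11.8 CPM at E16.5, 1184 (E18.5), 2529 (P0) and 2.58 (adult). Fcnb, the ficolin of immature neutrophils, stood at 1635 and 1041 CPM at E16.5, 138 in E18.5 cells, 32.8 in P0 cells and 1195 in adult cells. Fcnb was thus lower in the E18.5 and P0 libraries than in the others, and Thbs1 was higher. Apoe was 4.76-fold higher at P0 than at E18.5, but 62 of the 63 macrophage marker UMIs of P0 neutrophils were in 1 cell, and without the cell richest in macrophage, B cell or eosinophil UMIs in each library it was lower at P0 (Apoe, P0 against E18.5, log2 ratio -1.51).

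Several genes with large differences in the adult were also high in the other adult HP cells. Lars2 stood at 4182 CPM in adult neutrophils and 3203 in the other adult HP cells, against at most 184 and 132 at the other stages. Histone genes such as Hist1h1b (2481 and 1511 CPM) and the immunoglobulin gene Igkc (958 and 372 CPM) were likewise high in both. At P0, however, Hist1h1b stood at 21.9 CPM in neutrophils and 551 in the other HP cells. Its ratio between adult and P0 was thus far larger in neutrophils than in the other cells. The mast cell genes Cma1 and Tpsb2 and the T cell genes Cd3g, Trbc2 and Gzma, among the lowest in the adult against E16.5, were abundant in the other E16.5 HP cells, with Cma1 at 17618 and 13552 CPM. T cell markers were found in 29 of the 72 neutrophils of the second E16.5 library, 903 UMIs of 6 genes with up to 258 in 1 cell, and in 20 of 521 adult cells. B cell markers summed to 3538 UMIs in adult neutrophils, 2674 of them in 1 cell. Their part in these ratios was not tested, but with E16.5 cells holding T or B cell UMIs left out, or with the cell of each library richest in macrophage, B cell or eosinophil UMIs left out, every call of the primary granule and stefin genes had the same direction.

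**Figure D5:**
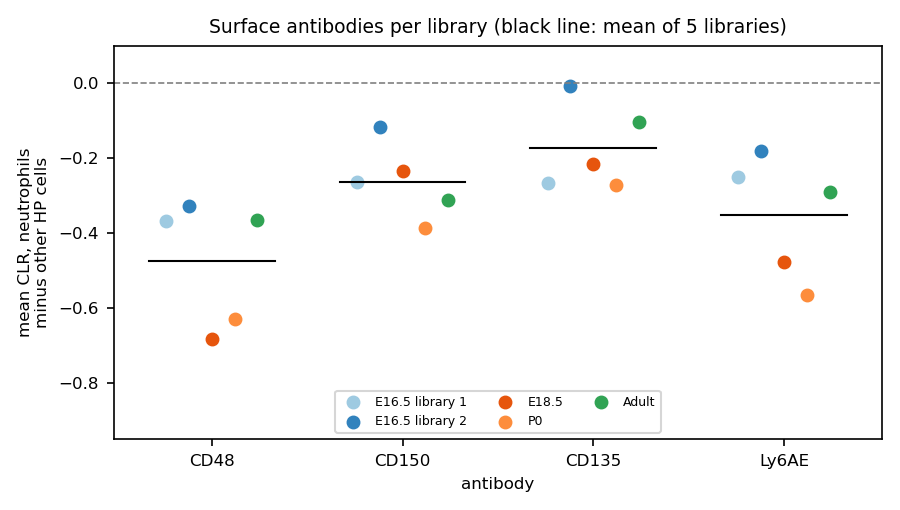
Mean CLR of 4 surface antibodies in neutrophils minus that in the other HP cells (vertical axis, no unit), 1 point per library and a line at the mean of 5 libraries. All 20 points lie below 0, from -0.684 for CD48 at E18.5 to -0.00837 for CD135 in the second E16.5 library.

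Surface antibodies were not used to make the clusters and were compared over libraries. The centered log-ratio (CLR) was taken for each antibody over cells, and 4 antibodies were present in all 5 libraries. CD48, a leukocyte adhesion ligand, had a mean CLR of 0.316 in neutrophils and 0.790 in the other HP cells, a difference of -0.475 ± 0.168 (SD, n = 5 libraries), lower in 5 of 5 libraries (exact two-sided sign-flip permutation p = 0.063, adjusted p = 0.063 over 4 antibodies). This is the smallest p that 5 libraries allow. The stem and progenitor markers were lower in 5 of 5 libraries as well, by -0.263 ± 0.10 for CD150, -0.173 ± 0.114 for CD135 and -0.353 ± 0.162 for Sca-1 (Ly6AE) (SD, n = 5), each with the same exact p. For these 3 the direction was opposite when the log-ratio was taken within a cell, whereas the mean difference of CD48 stayed negative, in 5 of 5 libraries that way and in 2 of 5 with log2 counts per 1000.

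In the second E16.5 library 16 antibodies were measured, in 72 neutrophils and 4661 other cells. Ly6C, an antigen of granulocyte and monocyte cells, had a median of 5 counts in neutrophils and 1 in the others, with CLR means of 1.37 and 0.391, and the neutrophil cluster had the highest mean CLR of all clusters. In mean counts the Mono/Mast cluster was higher, at 18.6 against 8.58 in the neutrophil cluster, with a mean CLR of 0.590. CD43, a sialomucin of leukocytes, had medians of 34.5 and 20 counts and was highest in the neutrophil cluster too. The Fc receptors CD16 and CD32 had medians of 11 and 3 counts and had rank 5 among clusters. In contrast, the T cell antigen CD90.2 was lower, with CLR means of 0.358 and 1.01, as was CD27 (0.256 and 0.562). The median cell held 71 antibody counts in neutrophils and 75 in the others, and this panel has no replicate library.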

How the data were processed

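The authors deposited raw UMI counts per gene and cell (20275 genes) with raw antibody counts, made per the paper's methods with Cell Ranger 3.1.0 on mm10 and annotated in R 4.0 with Seurat 3.1.5. They kept genes found in at least 30 cells and filtered cells on UMIs, genes and mitochondrial content. A deposited table gives each cell's library and cluster, and its mitochondrial content as a fraction. Members and gene lists were chosen with earlier results of these data known.

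UMIs of the members of a library were summed as CPM with exact Poisson intervals. Ratios carry conditional binomial intervals, and shares of cells Clopper-Pearson intervals, all at 95%. Shares of cells with a UMI were computed after thinning each cell to 1000 UMIs. An edgeR quasi-likelihood test had been planned only if both E16.5 libraries held at least 10 neutrophils. One held 2, so no p-value across genes was computed, and edgeR 4.0.16 (R 4.3.3) gave TMM factors alone. Antibody differences were tested by exact sign flips over libraries, and the test was tested on simulated data. Results of some list members are not reported here. Named genes were those of the fixed lists and, per comparison, the 10 largest ratios each way with at least 100 CPM and 50 UMIs, except genes of ribosomal proteins or mitochondria and Gm42418. Lists cover granule, late, stefin, S100, NADPH oxidase, pentose phosphate, leukotriene, transcription factor, receptor, adhesion, cell cycle, fetal growth, interferon, MHC and immediate early genes. Scrublet was run on each library (scanpy 1.11.5). Cells were read with Python 3.11.15, numpy 2.4.6, scipy 1.17.1 and pandas 2.3.3. Neutrophils per library ranged from 2 to 521, with 91343 to 5811976 summed UMIs, so genes near the minimum of 50 CPM rest on few UMIs at P0.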

Additional observations from a re-analysis of the deposited data

How the results depend on the processing

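Neutrophil counts at P0 (27 cells, 91343 UMIs) limit what can be seen there, and the adult and P0 libraries could not be cleared of doublets, since Scrublet marked only 0.0334% and 0.0483% of their cells. Few cells were marked in the E16.5 (0.179% and 0.147%) and E18.5 (0.115%) libraries as well, so doublets may remain there too. Scrublet marked no neutrophil in any library. No paired analysis was possible because only E16.5 has a second library. The quasi-likelihood test and its alternatives (DESeq2, upper quartile scaling, no filter) were not run for the reason given above. Leaving out either E16.5 library gave a neutrophil share of 0.368% to 1.52%, a share of cells with more primary granule UMIs of 97.2% to 100%, 557 to 1707 genes lower at E18.5 and 362 to 1287 lower in the adult than at E16.5. With no minimum of UMIs the share was 2.04% at E18.5 and 8.82% in the adult. The adult share of cells with more primary granule UMIs was 60.6% with the minimum and the thinning depth raised and 72.0% without thinning. With TMM factors, 1117 genes were lower at E18.5 than at E16.5, 6 were higher and 496 lower at P0 than at E18.5, 914 were higher in the adult than at P0, and 543 were higher and 582 lower in the adult than at E16.5. With each cell thinned to 1000 UMIs, fewer genes were compared. The counts higher and lower were 207 and 376 of 731 at E18.5 against E16.5 and 8 and 31 of 299 at P0 against E18.5. They were 177 and 68 of 1398 in the adult against P0 and 228 and 305 of 1363 in the adult against E16.5. In this order 79.8%, 13.0%, 17.5% and 39.1% of genes were called. The median log2 ratios were -1.09, -0.25, 0 and 0.35, so the median of the adult against E16.5 changed sign. With the filter of 20 UMIs alone, more genes were compared, and 3358 were lower at E18.5 than at E16.5, and 1110 higher and 2692 lower in the adult than at E16.5. The antibody differences reversed to 0.237 (CD150), 0.350 (CD135) and 0.0651 (Ly6AE) with the log-ratio per cell, and to 0.0752 (CD150) and 0.178 (Ly6AE) as log2 counts per 1000. The cause was not tested. Of the named genes under the alternatives, 5286 values kept their call or lack of one, 105 gained a call and 86 lost it. Of the called values 1 reversed (Apoe, P0 against E18.5, -1.51, without the cells rich in macrophage, B cell or eosinophil UMIs). A gene without a call that changed direction was not counted as reversed, such as Camp at E18.5 against E16.5 (-1.26 when thinned). Values below the level for comparison were left out. The alternatives that leave out cells with shared barcodes or with marker UMIs of other cell types were chosen after seeing the data.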
